A study of Mus musculus with 5 samples.

Results

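Integrins and laminins are the membrane receptors and the matrix proteins that join cells to basement membranes, and their genes were followed here across a mouse embryonic stem (ES) cell line, a hepatoma line and the hybrids made by fusing them. The members were the array probes whose transcript accession belonged, in the RefSeq gene table, to a mouse gene named Itga or Itgb with a number or with v, e, l, m, x or 2b, or Lama, Lamb or Lamc with a number. Described are 52 of the 41174 gene probes, for 23 integrin and 9 laminin genes among the 18300 genes that the array could be matched to. Itga10, Itgad, Itgb8 and Lamc1 were not matched to a probe and were not analysed here. Itgax and Lama2 were not well above background on any array, and the other 30 members, 22 integrins and 8 laminins, were compared.

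There were 5 arrays of total RNA, 1 for each condition. ES was the line E14, and EHe was a hybrid of E14 and Hepa1-6, a mouse hepatoma line, both grown undifferentiated in Glasgow minimum essential medium with serum replacement, a little serum and leukemia inhibitory factor. EHeD7 and EHeD14 were EHe differentiated for 7 and 14 days, per the labels as a monolayer on gelatin in serum-containing high-glucose medium, with no such factor in the recipe. The study's methods describe differentiation as embryoid bodies in another medium with serum replacement and do not name the arrayed samples there, so the culture behind these arrays is not settled. Hepa1-6 grew in serum-containing high-glucose medium. The study's fusion partners carried a red fluorescent and hygromycin-resistance construct (ES cells) or a green fluorescent and neomycin-resistance construct (cancer cells), and hybrids were selected for both resistances and picked as single ES-like colonies with a near-tetraploid genome, so EHe is an expanded colony that survived selection, and which colony was arrayed is not given in the sources used here. State and medium changed together, and the 4 ES and hybrid arrays were on one slide and Hepa1-6 on another, so effects of medium or slide and of cell state or line cannot be told apart.

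Each condition had a single array, so there is neither a replicate error nor a test, and the number of arrays limits the precision. Levels are the log2 of the scanner software's processed signal minus the 75th percentile of the array's gene spots, so 0 marks a bright probe near the upper quartile, and a level can be compared between arrays for the same probe but not between probes. Repeated spots of the same probe had, depending on the array, a median SD of 0.0717 to 0.101 in log2 units, which covers spot noise only. A difference was counted when it passed 3-fold with the brighter array well above background by the software's call. Where the dimmer array was not well above background, its level was taken as the higher of its own value and the lowest level called well above background on that array (-4.84 in EHe, and between -6.16 and -5.30 on the others), and the difference is written as at least N-fold. Beside each count stands the share of all 15428 genes well above background on 1 array or more that passed the same threshold.

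Marker genes bore out the labels of the parental lines for the most part, and those of the differentiated arrays in part. Of 5 ES cell markers on the array, Pou5f1, Sox2, Zfp42, Tdgf1 and Dppa5a, all were well above background on the ES, EHe, EHeD7 and EHeD14 arrays, and Dppa5a alone was on Hepa1-6. Pou5f1, the core pluripotency factor, was at 4.04 in EHe and 4.18 in EHeD14, while Zfp42, a marker of the naive state, was at 5.68 and 1.60. Sox2 was at 3.47 and 1.31, Tdgf1 at 3.83 and 3.66, and Dppa5a at 7.86 and 6.59. Of the 5, 2 were thus over 3-fold lower in EHeD14 than in EHe, against 4.39% of all genes. Of 7 hepatocyte and hepatoma markers, 5 were well above background in Hepa1-6, 4 in ES, 2 in EHe (Trf and Krt18) and 3 in each derivative (these and Hnf4a). Alb and Afp were at 6.06 and 6.77 in Hepa1-6 and not well above background in EHe or its derivatives, whereas Ttr and Apoa1 were not well above background in Hepa1-6 either.

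An integrin is a pair of an alpha and a beta chain that spans the membrane and links matrix proteins outside to actin inside. The beta chain of Itgb1 pairs with many alpha chains, including the laminin receptor alpha chains of Itga3, Itga6 and Itga7 and the collagen receptor chains of Itga1, Itga2 and Itga11. The alpha chain of Itgav pairs with the beta chains of Itgb3, Itgb5 and Itgb6 to bind RGD peptides in fibronectin, vitronectin and latent TGF-beta. Laminins are trimers of 1 alpha, 1 beta and 1 gamma chain and form the sheet on which a basement membrane is built. The chains of Lama1 and Lamb1 are those of the early embryo, those of Lama5 and Lamb1 are widespread in epithelia, that of Lama4 is known from vessels and mesenchyme, and those of Lama3 and Lamb3 belong to the laminin that anchors stratified epithelia through the integrin of Itga6 and Itgb4.

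Several laminins and integrins were higher after the hybrids differentiated. At both day 7 and day 14, 8 of the 30 members were over 3-fold higher than in EHe, against 5.66% of all genes (6.72% at day 7 alone and 6.78% at day 14 alone). These were the laminins Lama4, Lama5, Lamb1 and Lamb3, which makes 4 of 8, and the integrins Itga1, Itga3, Itga8 and Itga2b, which makes 4 of 22. Lama3 was over 3-fold lower at both days, as 3.37% of all genes were, Lama1 was lower at day 7 only, and Lamb2 and Lamc3 did not pass 3-fold. The median difference of the 8 laminins from EHe was 1.58 on the log2 scale at day 7 and 1.33 at day 14, that of the integrins 0.25 and 0.31, and that of all genes -0.12 and -0.07. In these bulk samples, more cells of a type and more RNA per cell cannot be told apart.

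**Figure D1:**
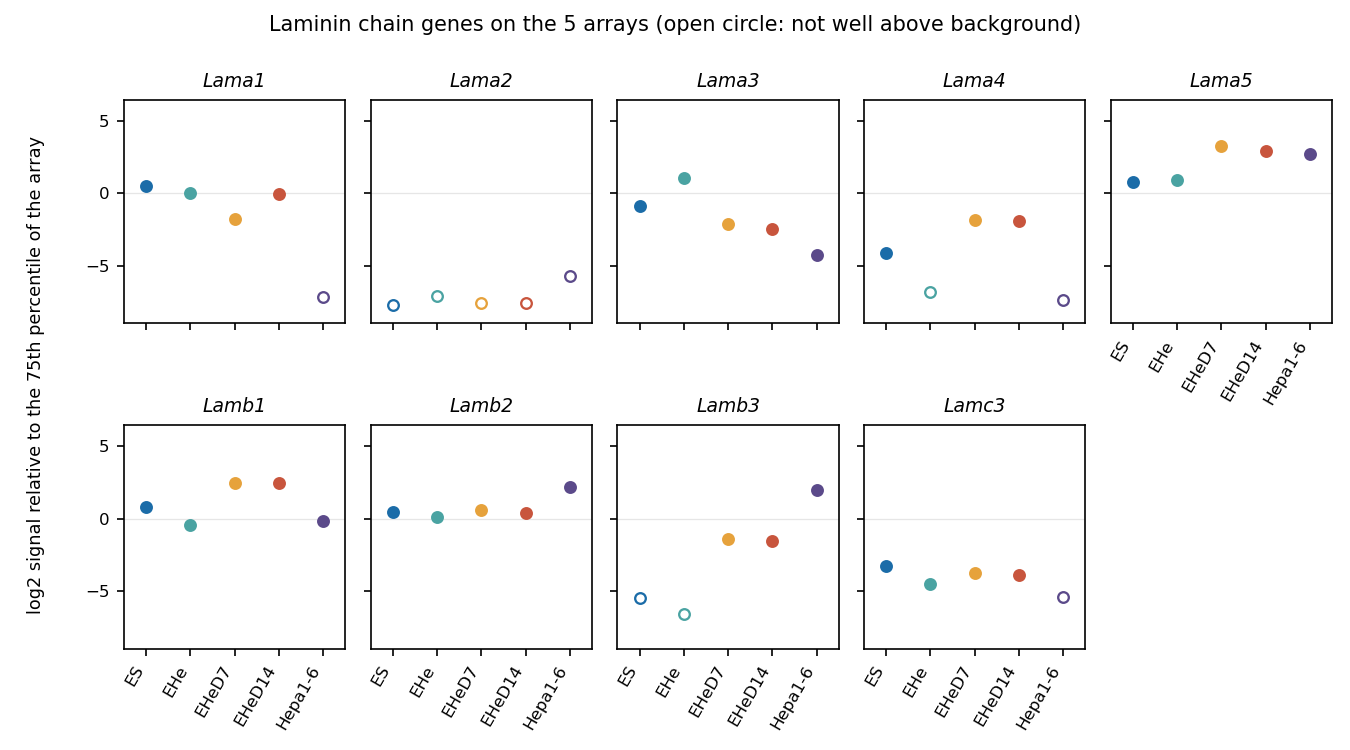
Level of each of the 9 laminin genes (log2 signal relative to the array's 75th percentile) on the 5 arrays, 1 point per array, with open circles where the probe was not well above background. Lama4, Lama5, Lamb1 and Lamb3 stand higher in EHeD7 and EHeD14 than in EHe, Lama3 stands lower, and levels are not comparable between panels.

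Among the beta chains, Lamb1, the beta chain of the embryonic and the widespread epithelial laminins, was at 0.82 in ES and -0.41 in EHe, 2.49 in EHeD7 and 2.44 in EHeD14, and -0.14 in Hepa1-6. It was 7.42-fold higher at day 7 and 7.20-fold higher at day 14 than in EHe, and both differentiated arrays stood above both parental lines. Lamb3, the epithelial anchoring chain, was not well above background in ES (-5.49) or EHe (-6.64), and was at -1.41 in EHeD7, -1.54 in EHeD14 and 2.00 in Hepa1-6. It was at least 10.8-fold higher than in EHe at day 7 and at least 9.88-fold higher at day 14, which left it 11.6-fold below Hepa1-6. Lamb2, a beta chain known from muscle and kidney, stayed between 0.13 and 0.57 on the 4 ES and hybrid arrays and was at 2.20 in Hepa1-6.

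Lama3, the alpha chain of the epithelial anchoring laminin, ran the other way from Lamb3, its beta chain, at -0.86 in ES and 1.08 in EHe, -2.10 in EHeD7 and -2.47 in EHeD14, and -4.25 in Hepa1-6. It was 9.04-fold lower at day 7 and 11.7-fold lower at day 14 than in EHe. Its second probe went the same way over a smaller range, from -3.86 in EHe to -4.33 and -4.30, and had EHe below ES (-3.53) where the first probe had it 1.94 above. Of these partner chains, one was thus higher and the other lower after differentiation.

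Of the other alpha chains, Lama5, that of the widespread epithelial laminins, was at 0.80 in ES and 0.95 in EHe, 3.31 in EHeD7 and 2.93 in EHeD14, and 2.71 in Hepa1-6. The differentiated arrays were 5.15-fold and 3.95-fold above EHe and, under this scaling, lay slightly above Hepa1-6. Under median centring the median of all genes, EHeD14 minus Hepa1-6, went from 0.30 to -0.53 on the log2 scale. That shift is larger than the gap of 0.22 between these arrays for Lama5, so their order depends on the scaling. Lama4, the mesenchymal and vascular chain, was at -4.15 in ES, not well above background in EHe (-6.82) and Hepa1-6 (-7.40), and at -1.88 and -1.94 in EHeD7 and EHeD14, at least 7.79-fold and at least 7.44-fold above EHe. All 3 of its probes were higher in the differentiated arrays, and in ES 1 of the 3 was well above background. Lama1, the chain of the earliest embryonic basement membranes, was at 0.53 in ES and 0.02 in EHe, -1.81 in EHeD7 and -0.07 in EHeD14, and -7.16 in Hepa1-6, where it was not well above background. It was 3.54-fold below EHe at day 7 only and was the sole member past 3-fold between the 2 days, 3.33-fold higher at day 14, where 0.493% of all genes were higher. Under normexp background correction these differences were -1.52 and 1.45 on the log2 scale, both short of 3-fold. No member was over 3-fold lower at day 14 than at day 7, where 0.642% of all genes were. Lamc3 ranged from -5.42 in Hepa1-6, not well above background, to -3.29 in ES, and its second probe was not well above background on any array.

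Among the integrins that were higher at both days, Itga3, an alpha chain of laminin receptors that binds the epithelial laminins, was at 1.45 in ES and -1.39 in EHe, 1.60 in EHeD7 and 1.32 in EHeD14, and 5.31 in Hepa1-6. It was 7.93-fold and 6.55-fold above EHe and had its lowest level in EHe and came back to near that of ES. Another of its 3 probes moved alike, at -0.31 in ES, -3.05 in EHe, and -0.03 and -0.48 at the 2 days. The remaining one showed little of this, at -2.48 in ES, -2.78 in EHe, and -2.21 and -2.87 at the 2 days. Itga8, which with the beta chain of Itgb1 binds nephronectin and fibronectin, was at -4.73 in ES, not well above background in EHe (-4.87) and Hepa1-6 (-7.42), and at -2.38 and -1.90 in EHeD7 and EHeD14, at least 5.51-fold and at least 7.67-fold above EHe. One of its 2 other probes was at -1.99 and -1.68 at these days and not well above background on the 3 other arrays, and the last was not well above background anywhere.

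Itga1, the alpha chain of a collagen IV receptor, was well above background on the differentiated arrays alone, at -2.85 and -2.94, at least 1.73 and 1.63 above EHe on the log2 scale. A second probe was well above background on the same arrays, at -4.61 and -4.26. The first probe lay just past the threshold, with EHe at -4.57. Under median centring of the arrays its differences were 1.55 and 1.48 on the log2 scale, just short of 3-fold. Itga2b, the alpha chain of the platelet fibrinogen receptor, was at -4.45 in ES, not well above background in EHe (-5.16), and at -3.05 in EHeD7, -3.00 in EHeD14 and -4.54 in Hepa1-6, at least 3.46-fold and at least 3.57-fold above EHe. Itga11, a collagen receptor chain of mesenchyme, was at -3.77 in EHe, -2.31 in EHeD7 and -2.56 in EHeD14 and did not reach 3-fold. Under normexp background correction, which compresses dim signals, Itga1 and Itga2b did not reach 3-fold at either day and Itga8 did not at day 7.

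Fewer members were lower after differentiation: 3 at day 7 (Itgam, Lama1 and Lama3) against 4.09% of all genes, and 2 at day 14 (Itgal and Lama3) against 4.39%. Itgal, the alpha chain of the leukocyte receptor for ICAMs, was at -0.61 in ES and -0.30 in EHe, -1.86 in EHeD7 and -2.29 in EHeD14, and -3.97 in Hepa1-6, 3.97-fold below EHe at day 14. Itgam, a myeloid alpha chain, was at -4.50 in ES and -4.16 in EHe and not well above background on the other arrays, at least 3.99-fold below EHe at day 7, and its second probe was not well above background anywhere. With median centring or quantile normalization 7 members were higher and 5 lower at day 7, and under normexp 5 and 1, against 8 and 3 here.

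**Figure D2:**
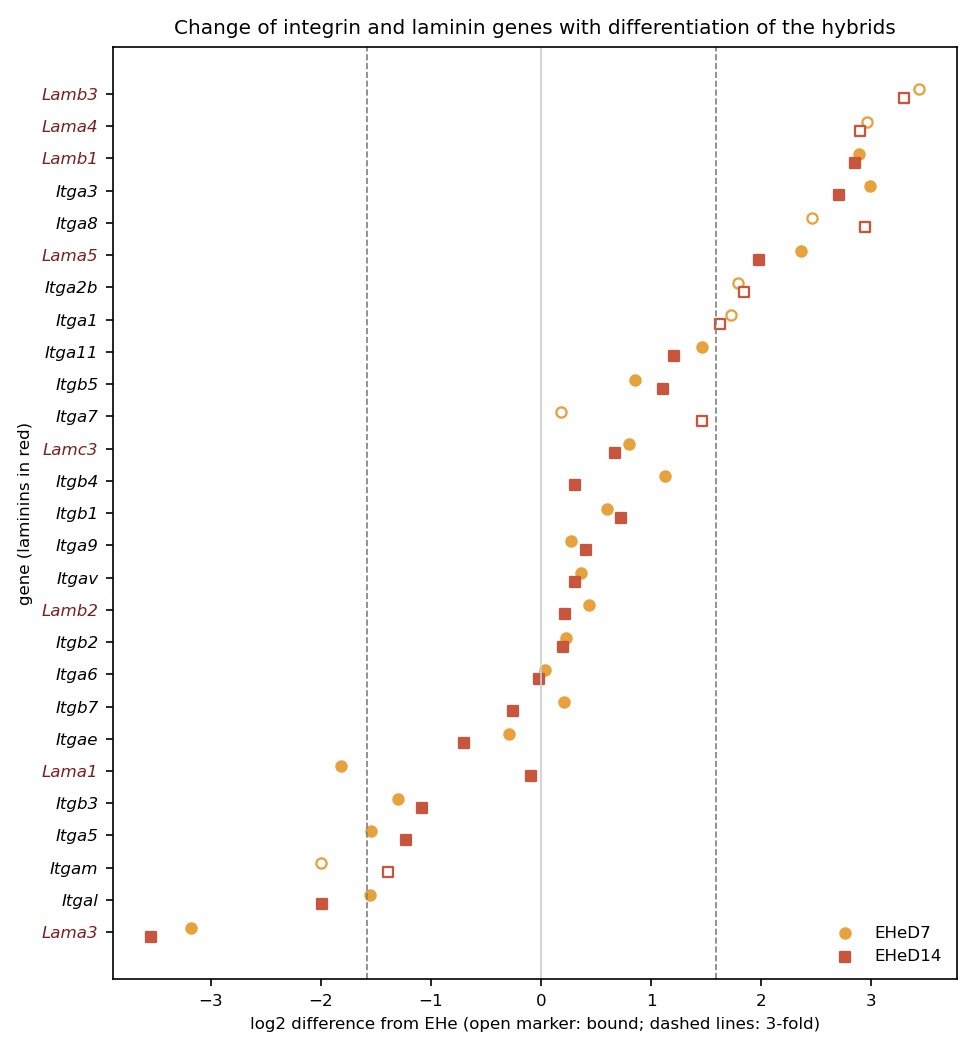
Log2 difference of EHeD7 (circles) and EHeD14 (squares) from EHe for the 27 members with a measurable difference, ordered by their mean, with open markers for bounds and dashed lines at 3-fold. The laminins Lamb3, Lama4 and Lamb1 stand at the top, and Lama3 lies lowest.

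Since these differences share the EHe array, the differentiated arrays were also set against ES. At both days 10 members were over 3-fold higher than in ES, against 6.42% of all genes, and 3 were lower, against 5.26%. Past 3-fold above both ES and EHe at both days were 6 members, Itga1, Itga8, Lama4, Lama5, Lamb1 and Lamb3, against 3.60% of all genes, and none was below both, against 2.14%. Of the 6, Lamb1 was just past 3-fold above ES, at 3.17-fold and 3.08-fold. Itga1, and Itga8 at day 7, fell short of 3-fold above EHe under alternatives given above. These counts against ES were not recomputed under the alternatives. Itga3 and Itga2b, higher than EHe, were not past 3-fold from ES. Itga9, Itgav, Itgb1 and Itgb5 were above ES with part of the difference already present in EHe. Itgb1, the common beta chain, is the best measured of these, with 10 printed spots of its probe. It was at -0.21 ± 0.10 in ES (SD over 9 spots) and 0.81 ± 0.10 in EHe (10 spots), 1.42 ± 0.04 in EHeD7 (10 spots) and 1.54 ± 0.04 in EHeD14 (9 spots), and 1.93 ± 0.12 in Hepa1-6 (10 spots). The spots show the spread of the probe on an array and not that between cultures. Itgb5, the beta chain of a vitronectin receptor, was at 2.12 in ES and 3.66 in EHe, 4.51 in EHeD7 and 4.78 in EHeD14, and 3.75 in Hepa1-6.

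The 250 bases before the start of Lama5, Lamb1, Lamb3 and Itga3, or before the more upstream start where a gene has several, are shown as examples of the genes that were higher at both days. They come from the RefSeq sequences of build GRCm38.p6, read 5′ to 3′ on the strand of the gene, and lie at chr2:180225860-180226109 (minus strand), chr12:31265043-31265292 (plus), chr1:193301744-193301993 (plus) and chr11:95076715-95076964 (minus). Capitals mark matches to motifs searched on both strands, the AP-1 site TGANTCA, the TEAD site GGAATG, the GC box GGGCGG, the TATA box TATAAA and the E-box of Snail and Zeb factors CAGGTG.
Lama5: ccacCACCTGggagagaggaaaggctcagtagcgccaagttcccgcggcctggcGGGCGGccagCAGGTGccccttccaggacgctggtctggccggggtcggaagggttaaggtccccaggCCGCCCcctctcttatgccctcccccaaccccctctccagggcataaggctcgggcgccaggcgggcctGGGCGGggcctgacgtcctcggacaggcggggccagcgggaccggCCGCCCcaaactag
Lamb1: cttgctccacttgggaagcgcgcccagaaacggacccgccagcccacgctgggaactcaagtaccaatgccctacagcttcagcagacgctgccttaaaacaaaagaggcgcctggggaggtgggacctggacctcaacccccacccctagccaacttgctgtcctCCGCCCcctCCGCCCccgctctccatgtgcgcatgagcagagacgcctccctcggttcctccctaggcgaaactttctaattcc
Lamb3: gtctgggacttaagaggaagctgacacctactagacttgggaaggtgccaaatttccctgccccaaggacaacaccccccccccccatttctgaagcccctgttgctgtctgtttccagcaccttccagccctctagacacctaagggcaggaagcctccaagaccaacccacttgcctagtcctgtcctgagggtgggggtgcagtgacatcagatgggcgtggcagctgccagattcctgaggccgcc
Itga3: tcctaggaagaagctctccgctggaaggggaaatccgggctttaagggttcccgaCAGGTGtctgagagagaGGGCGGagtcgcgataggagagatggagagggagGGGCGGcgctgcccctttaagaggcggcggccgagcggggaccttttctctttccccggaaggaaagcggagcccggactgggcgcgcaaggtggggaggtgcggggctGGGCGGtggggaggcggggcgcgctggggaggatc

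The window of Lama5 held 4 matches to the GC box and 2 to the E-box, that of Lamb1 2 to the GC box, that of Itga3 3 to the GC box and 1 to the E-box, and that of Lamb3 none of these letters. A second window of Lamb3, before a start further downstream, held 1 match to the TEAD site and 1 to the E-box, and a second one of Itga3 held 1 to the GC box. The windows of Itga1, Itga8 and Itga2b, also higher at both days and not shown, held no match, and Lama4 had no entry. Over the 24 windows of the 21 members in the table, 37.5% held the GC box, 29.2% the E-box, 8.33% the TEAD site, 4.17% the AP-1 site and none the TATA box. Of all 32851 windows of this length the shares were 32.7%, 17.2%, 12.6%, 6.75% and 12.4%. The median GC content was 58.0% in the members' windows and 52.4% in all. A match is no evidence that a factor bound there, and the other 11 members had no entry.

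Some other genes of these pathways also passed 3-fold. The folds are against EHe, which was itself below ES for some of these genes. Of 25 integrin adaptors and kinases, 4 were over 3-fold higher at day 14 than in EHe and none lower, against the 6.78% and 4.39% of all genes given above. Zyx, a focal adhesion protein, was at 1.82 in EHe and 5.69 in EHeD14, 14.7-fold higher, Parva was 3.83-fold, Ptk2b 3.43-fold and Fermt1, an epithelial kindlin, at least 3.14-fold higher, while the talin Tln1 (1.94 and 2.06) and the kinase Ptk2 (0.68 and 0.25) were near their EHe level. Of 18 other basement membrane genes well above background on an array, 3 were higher, the collagen IV chains Col4a1 (12.4-fold) and Col4a2 (9.80-fold), which form the second sheet of the basement membrane, and Col18a1 (3.04-fold), and Smoc1 was 7.13-fold lower. Col4a1 was at 1.14 in ES, -0.82 in EHe and 2.81 in EHeD14, and Col4a2 at 0.52, -1.25 and 2.04. Col18a1 was at 4.69, 3.69 and 5.30 in the same order. The linkers Nid1, Nid2, Hspg2 and Agrn differed from EHe by -0.47, 0.50, -0.32 and 0.37 on the log2 scale.

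Of 15 other integrin ligands well above background on an array, 3 were higher and 4 lower, against 6.78% and 4.39% of all genes. Ccn2 and Ccn1, matricellular proteins, were 72.0-fold and 9.66-fold higher and Thbs1 at least 3.61-fold higher, whereas Vwf was 14.5-fold, Icam2 at least 6.67-fold, Fn1 3.35-fold and Spp1 3.12-fold lower. Ccn2 was at 1.22 in ES, -1.52 in EHe and 4.65 in EHeD14, and Ccn1 at 0.11, -1.26 and 2.01 in the same order. Of 11 laminin receptors and integrin partners, Sdc4 was 7.31-fold and Sgca at least 4.16-fold higher, and the tetraspanin Cd151 (3.12 and 3.21) and dystroglycan, Dag1 (2.04 and 1.49), were not past 3-fold.

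Markers of other cell types also changed with differentiation, some upward and some downward. Of 7 mesenchyme markers 5 were over 3-fold higher at day 14 than in EHe, where 6.78% of all genes were. The median level of the list went from -4.17 in EHe to -1.67 in EHeD7 and -1.74 in EHeD14, with ES at -2.21 and Hepa1-6 at -6.12. Col1a1 was 19.5-fold higher. Of 6 parietal and primitive endoderm markers 3 were over 3-fold higher at day 14 than in EHe, against the same 6.78%, with list medians of -1.19 in ES and -3.41 in EHe, -3.69 in EHeD7 and -2.25 in EHeD14, and -6.71 in Hepa1-6. Of the 3, Dab2 was above its ES level (0.76 and -0.16), and Gata6 (-0.24 and 1.59) and Sox17 (-1.74 and -1.27) were below it. At day 7, 1 marker was higher, against 6.72% of all genes, and 1 lower, against 4.09%. The lower one was Sox7, 8.05-fold at day 7 and 2.54-fold at day 14. Krt18, an epithelial keratin on the hepatoma list, was 94.8-fold higher in EHeD14 than in EHe, at 1.37 in ES, -0.96 in EHe and 5.61 in EHeD14. Of 6 endothelial markers, Cldn5 was 4.28-fold higher than in EHe at day 7 and 2.49-fold higher at day 14, Pecam1 was 9.05-fold lower at day 7 and at least 18.7-fold lower at day 14, and Cdh5, Kdr and Emcn were not well above background on any array. The part of these cell types in the laminin differences was not tested.

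**Figure D3:**
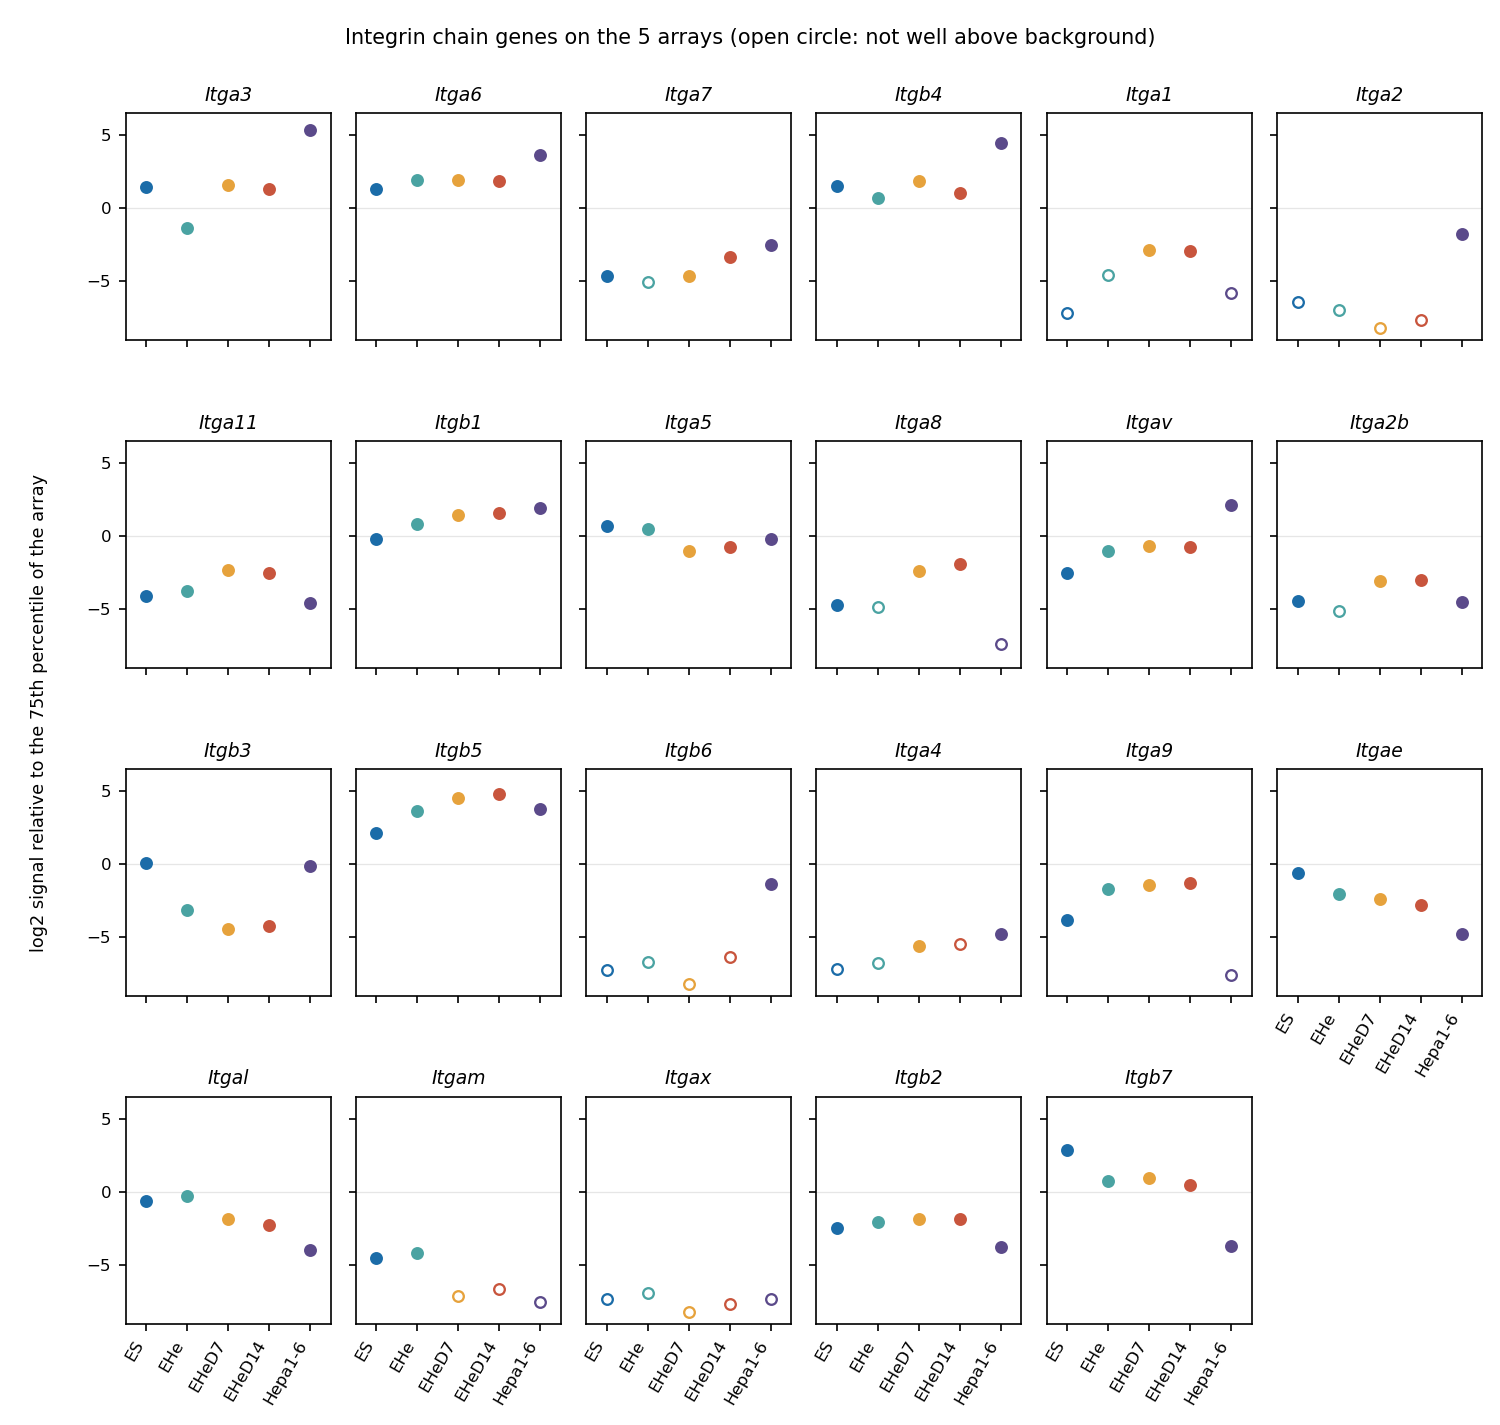
Level of each of the 23 integrin genes (log2 signal relative to the array's 75th percentile) on the 5 arrays, 1 point per array, ordered from laminin and collagen receptors to leukocyte chains, with open circles where the probe was not well above background. Itga2 and Itgb6 are filled on Hepa1-6 alone, and levels are not comparable between panels.

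The parental lines differed in the RNA levels of receptor and laminin genes. In Hepa1-6 12 of the 30 members (40%) were over 3-fold higher than in ES, against 13.1% of all genes. Lower were 6 (20%), which is near the 21.0% of all genes. The higher ones were Itga2, Itga3, Itga6, Itga7, Itgav, Itgb1, Itgb4, Itgb5, Itgb6, Lama5, Lamb2 and Lamb3, so all 4 members of the laminin-binding group were among them, although Itga7 did not reach 3-fold under normexp (1.07 on the log2 scale). The lower ones were Itgae, Itgal, Itgb7, Lama1, Lama3 and Lamc3, the last of which did not reach 3-fold under median centring, quantile normalization or normexp. The median of all genes moved with the scaling, from -0.49 here to 0.29 under median centring and -0.28 under quantile normalization, while that of the 30 members was -0.14, 0.64 and 0.63. These medians are over signals as measured. Under median centring 12 members were higher and 5 lower, and under quantile normalization 13 and 5.

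Among the laminin receptors, Itga6 was at 1.27 in ES and 1.89 in EHe, 1.93 in EHeD7 and 1.87 in EHeD14, and 3.60 in Hepa1-6, 5.02-fold above ES. Its partner in hemidesmosomes, Itgb4, was at 1.51 in ES and 0.70 in EHe, 1.83 in EHeD7 and 1.01 in EHeD14, and 4.45 in Hepa1-6, 7.69-fold above ES, and its second probe ran in parallel from 0.28 in EHe to 3.74 in Hepa1-6. The ES and hybrid arrays lay close together for both genes and Hepa1-6 stood apart. Itga3 was 14.6-fold above ES, and Itga7, a laminin receptor chain of muscle, went from -4.65 in ES to -2.56 in Hepa1-6, with EHe not well above background (-5.09), EHeD7 at -4.66 and EHeD14 at -3.38.

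Hepa1-6 was past 3-fold from each of the 4 other arrays for 13 members. It was higher for Itga2, Itga3, Itga6, Itgav, Itgb4, Itgb6, Lamb2 and Lamb3, 8 members, against 8.14% of all genes, and lower for Itgae, Itgal, Itgb7, Lama1 and Lama3, 5 members, against 10.9%. Of the lower ones, Itgae, Itgal and Lama3 fell short of 3-fold against EHeD14 under median centring, quantile normalization and normexp. Of the higher ones, Itga6 fell just short of it against EHeD14 under quantile normalization. Itga2, the alpha chain of a collagen receptor of epithelia and platelets, and Itgb6, the epithelial beta chain that activates latent TGF-beta, were well above background in Hepa1-6 alone, at -1.81 and -1.35, at least 12.2-fold and at least 16.8-fold above ES. One of the 3 Itgb6 probes was not well above background in Hepa1-6 either. Itgav, the alpha chain of the RGD receptors, was at -2.52 in ES and -1.03 in EHe, -0.68 in EHeD7 and -0.72 in EHeD14, and 2.15 in Hepa1-6, 25.6-fold above ES. Lamb3 was at least 171-fold above ES.

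In the other direction, Itgb7, a beta chain of lymphocyte homing receptors, was at 2.85 in ES and 0.73 in EHe, 0.93 in EHeD7 and 0.48 in EHeD14, and -3.71 in Hepa1-6, 94.7-fold below ES. Its partner Itgae was at -0.64, -2.08, -2.38, -2.79 and -4.82 in the same order, and Itgb2, the leukocyte beta chain, at -2.49, -2.07, -1.84, -1.87 and -3.76. All 3 had their lowest level in Hepa1-6 and lay close together on the hybrid arrays. These are chains known from leukocytes, and of 7 leukocyte markers on the array 4 to 5 were well above background on each array, while Ptprc, the pan-leukocyte antigen, and Spi1 were not on any. Lama1 was at least 57.0-fold lower in Hepa1-6 than in ES.

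The undifferentiated hybrid was also set against ES, where fusion, selection and the picking of a colony cannot be told apart. EHe was over 3-fold higher than ES for Itga9 and Lama3, 2 of 30 members, against 2.36% of all genes. It was lower for Itga3, Itgb3 and Itgb7, 3 of 30, against 3.21%. For Itga3, 1 of the 3 probes differed little, at -2.48 in ES and -2.78 in EHe. Itga9, an alpha chain that binds tenascin and VCAM1, was at -3.80 in ES and -1.72 in EHe, -1.45 in EHeD7 and -1.31 in EHeD14, and was not well above background in Hepa1-6 (-7.58), and its second probe moved alike, from -4.99 to -2.44. The hybrid lay above both parents, 4.24-fold above ES, a difference of 2.08 on the log2 scale that was 1.16 under normexp. Itgb3, the beta chain of vitronectin and platelet receptors, was at 0.08 in ES and -0.12 in Hepa1-6 but at -3.17 in EHe, -4.47 in EHeD7 and -4.25 in EHeD14, so the 3 hybrid arrays lay below both parents, EHe by 9.52-fold against ES and 8.26-fold against Hepa1-6. Under median centring 4 members were higher and 3 lower, and under normexp 1 and 3.

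**Figure D4:**
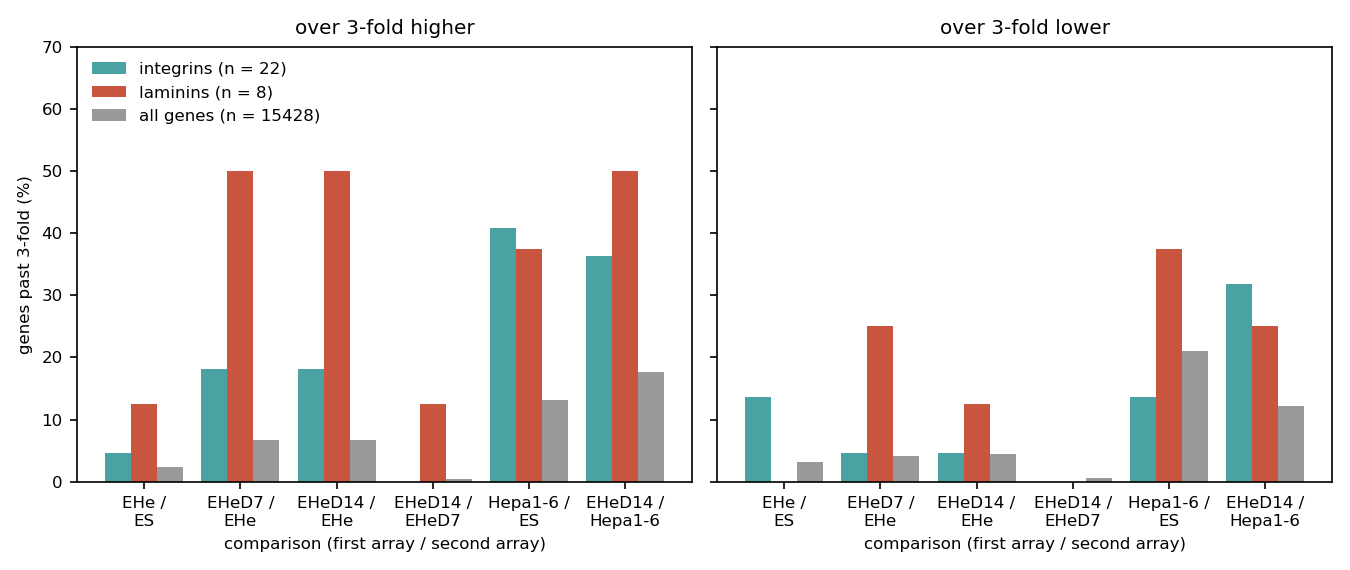
Percent of the 22 integrins, the 8 laminins and all 15428 genes past 3-fold higher (left) or lower (right) in each of 6 comparisons between single arrays, as bars from 0. In EHeD7 and EHeD14 against EHe, and in EHeD14 against Hepa1-6, 4 of 8 laminins were higher.

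Some members lay nearer to Hepa1-6 in EHeD14 than in EHe, and others lay further from it. Higher both in EHeD14 than in EHe and in Hepa1-6 than in ES, which share no array, were Itga3, Lama5 and Lamb3, 3 of the 8 and 3 of the 12 on each side, against 2.27% of all genes. Lower in both were Itgal and Lama3, 2 of 2 and 2 of 6, against 2.59%. Itga3 in EHeD14 was near its level in ES (1.32 and 1.45) and 15.9-fold below Hepa1-6. Itga1, Itga8, Lama4 and Lamb1 were instead higher in EHeD14 than in Hepa1-6. Compared directly, 12 members were over 3-fold higher in EHeD14 than in Hepa1-6, against 17.6% of all genes, and 9 were lower, against 12.2%. The 12 were Itga1, Itga8, Itga9, Itgae, Itgal, Itga11, Itgb2, Itgb7, Lama1, Lama3, Lama4 and Lamb1, and the 9 were Itga2, Itga3, Itga6, Itgav, Itgb3, Itgb4, Itgb6, Lamb2 and Lamb3. The first count depends on the scaling, with 6 higher and 10 lower under median centring, and 6 and 9 under quantile normalization or normexp. Under these scalings Itga1, Itgae, Itgal, Itga11, Itgb2 and Lama3 dropped under 3-fold and kept their direction. Under quantile normalization Itga6 was at -1.58 on the log2 scale, just short of 3-fold, so 8 of the 9 lower members there were the same.

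**Figure D5:**
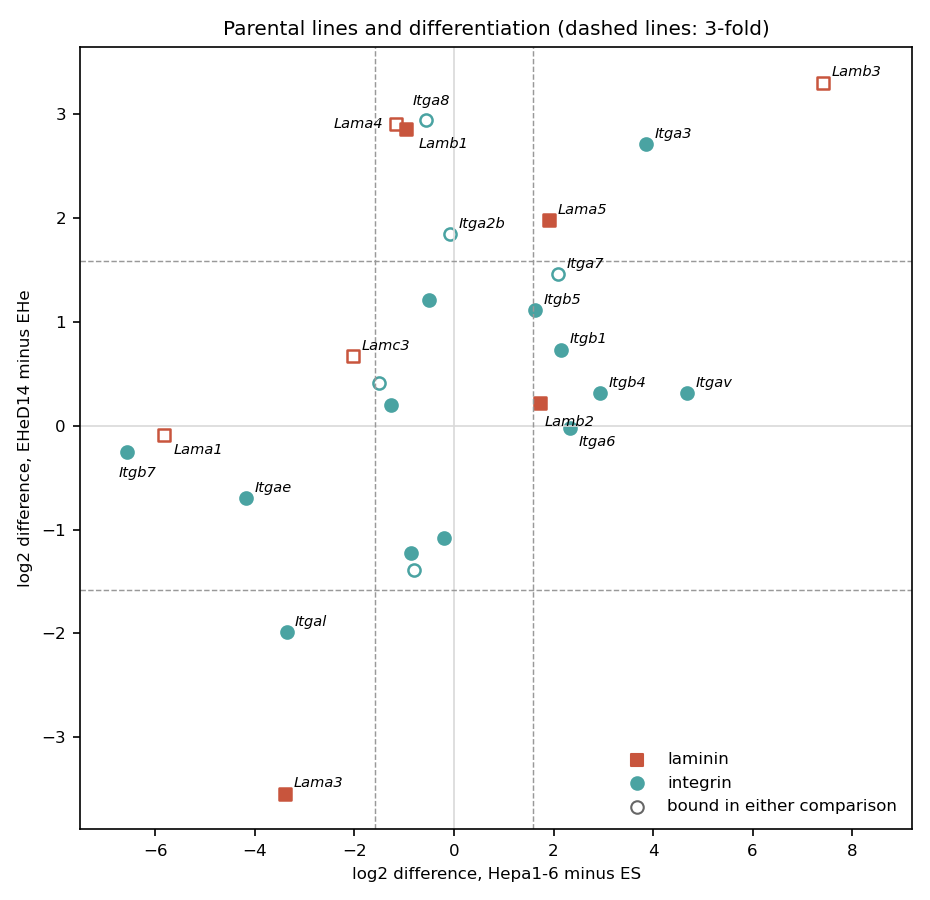
Log2 difference between the parents (Hepa1-6 minus ES, horizontal) against that with 14 days of differentiation (EHeD14 minus EHe, vertical) for the 26 members measurable in both, with open markers for bounds and dashed lines at 3-fold. Itga3, Lama5 and Lamb3 lie past 3-fold upward on both axes, and Itgal and Lama3 downward on both.

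Outside these comparisons, Itga5, the alpha chain of the fibronectin receptor, was at 0.65 in ES and 0.50 in EHe, -1.05 in EHeD7 and -0.73 in EHeD14, and -0.21 in Hepa1-6 and passed 3-fold in none of the 6. Itga4, the alpha chain of a VCAM1 receptor, was well above background only in EHeD7 (-5.59) and Hepa1-6 (-4.81), and its 2 other probes on no array. Of the 14 members with more than 1 probe, Lama3 and Itga3 were those whose probes disagreed in direction where a member passed 3-fold, as given above.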

How the data were processed

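Total RNA of 5 cell states was hybridised to Agilent mouse arrays, 1 each. Per the labels the dye was Cy3, and per the study's methods Cy5. The authors deposited processed signal intensities from Agilent Feature Extraction 10.7.3.1, already background-corrected and not normalised between arrays. The software's 0 or 1 calls for outlier and well-above-background spots were deposited with them. A deposited table of the whole series held the same signals.

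Here control and outlier spots were left out, the 75th percentile of an array was subtracted from its log2 signals, spots of a probe were averaged, and 26888 probes were named through RefSeq accessions (14286 were not). Of several probes, the one well above background on most arrays, then the brightest, stood for a gene. Genes past 3-fold in any of 6 comparisons were named. The procedure was tested on simulated data. One gene that the naming rule also finds is not reported here and entered no count of members. Members and lists were chosen with earlier results of these data known. The promoter motifs and the comparisons with ES at both days were chosen after seeing the data. Alternatives were normexp (offset 50, on median signals), quantile normalisation, median centring, signals without bounds, a filter for genes well above background on all 5 arrays, averaging over probes and the series table. Python 3.11.15, pandas 2.3.3, R 4.3.3 and limma 3.58.1 were used.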

Additional observations from a re-analysis of the deposited data

How the results depend on the processing

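Of 84 alternative counts of members past 3-fold, 65 were within 1.5 times the count reported. With genes well above background on all 5 arrays, which leaves 17 members, 3 were higher in EHeD7 and 3 in EHeD14 than in EHe (8 each in the report) and 1 lower in EHeD7 (3), 7 were higher in EHeD14 than in Hepa1-6 (12), 1 in EHe than in ES (2) and 0 in EHeD14 than in EHeD7 (1). EHe against ES had 4 members higher under median centring, 1 under normexp and 1 with the mean of probes. EHeD14 against Hepa1-6 had 6 higher under median centring, 6 under quantile normalization and 6 under normexp. EHeD7 against EHe had 5 higher under normexp, and 5 lower under median centring, 5 under quantile normalization and 1 under normexp. EHeD14 against EHeD7 had 0 higher under normexp and 2 with signals as measured, and Hepa1-6 against ES had 10 lower with signals as measured. The cause was not tested beyond the loss of genes under the stricter filter. The 434 values for single members are the differences past 3-fold in the report, recomputed under each alternative, and none changed direction. Differences this large leave little room for a change of direction, and the direction of smaller ones was not followed. Of 66 differences past 3-fold, 49 stayed past it under normexp, 56 under quantile normalization, 57 under median centring, 57 with the mean of probes, and all under the series table. With the mean of probes, Itga1 was 0.40 and 0.56 above EHe at days 7 and 14 on the log2 scale and Itga8 0.95 and 1.58, where probes at background enter the mean. No paired analysis was possible because every cell state was hybridised once. Signal over background limits dim members: fold values against arrays below background are bounds.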
